A study of Agaricus bisporus with 16 samples.

Results

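The genes described here differed at least 2-fold between pinning and the first flush of mushrooms in mycelium of the Agaricus bisporus strain A15, while staying nearly level in 3 other strains. They are 34 of the 9520 genes listed in all files, 32 higher and 2 lower on the later day in A15. RNA had been sequenced from compost colonised by 219 30P, 245 AMA-7, 065 BP-8 or the commercially grown A15. Samples came from cultivation crates 39 days after spawning, at the first flush, and 27 days after spawning, when mushroom initials (pins) form. The 8 groups (a strain on a day) held 2 libraries apiece, 16 in all, and each strain is a single isolate. Over the 9520 genes the libraries summed to between 832679 and 912947 FPKM, with 8488 to 8797 genes at 1 FPKM or more. All groups grew in the same kind of compost, made from wheat straw, manure and gypsum and covered with a casing layer, so none is an untreated control.

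Agaricus bisporus, the button mushroom, feeds on the cellulose, hemicellulose and lignin of composted straw. Its mycelium secretes oxidative enzymes and glycoside hydrolases into the compost, and passes the sugars and nitrogen it gains to the fruiting bodies that form in the casing layer. Pinning, when the first initials appear, and the first flush, when the first crop is picked, are the usual landmarks of its cultivation.

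Members were chosen by values of these same libraries. For each strain the day difference d was taken as log2 of the mean day 39 FPKM plus 1, minus log2 of the mean day 27 FPKM plus 1. The deposited values were read as FPKM, which relates the fragments of a gene to its transcript length and to the size of the library. A gene was kept with d of at least 1 in either direction in A15, under 0.4 in size in each other strain, and a mean of at least 10 FPKM in its highest group. The day differences are therefore given as descriptions, with no test. The level of 10 FPKM was reached by 7616 genes, and 1891 of these had d of 1 or more in size in A15, 1382 higher and 509 lower on day 39. Of those, 443 stayed under 0.4 in 219 30P, 242 in 245 AMA-7 and 293 in 065 BP-8, and 34 in all 3.

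The same rule applied to each other strain in turn found 59 genes for 219 30P, 22 higher and 37 lower, 27 genes for 245 AMA-7, 20 higher and 7 lower, and 10 genes for 065 BP-8, 7 higher and 3 lower. The share of higher genes in A15 moved with the scaling of the libraries. As deposited, the median day difference of all 9520 genes was 0.22 in A15, against -0.05 in 219 30P, 0.13 in 245 AMA-7 and 0.04 in 065 BP-8. With median-ratio scaling, which brought the A15 median to 0.02, the rule found 30 genes for A15, 17 higher and 13 lower, of which 15 were among the 34. With quantile normalization it found 37 genes, 15 higher and 22 lower, 10 of them among the 34. The share higher on day 39 was 94.1% of the 34 genes, 56.7% of the 30 and 40.5% of the 37. All 32 stayed higher on day 39 under both scalings, by at least 0.82 and 0.54, and the other 2 stayed lower. Since the rule chose genes with a large d, their direction could hardly turn, and nothing is read from this. A d of 1 or more in size in A15 was kept by 19 of the 34 genes with median-ratio scaling and by 16 with quantile normalization. In the 3 other strains 27 and 22 of them stayed under 0.4.

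**Figure D1:**
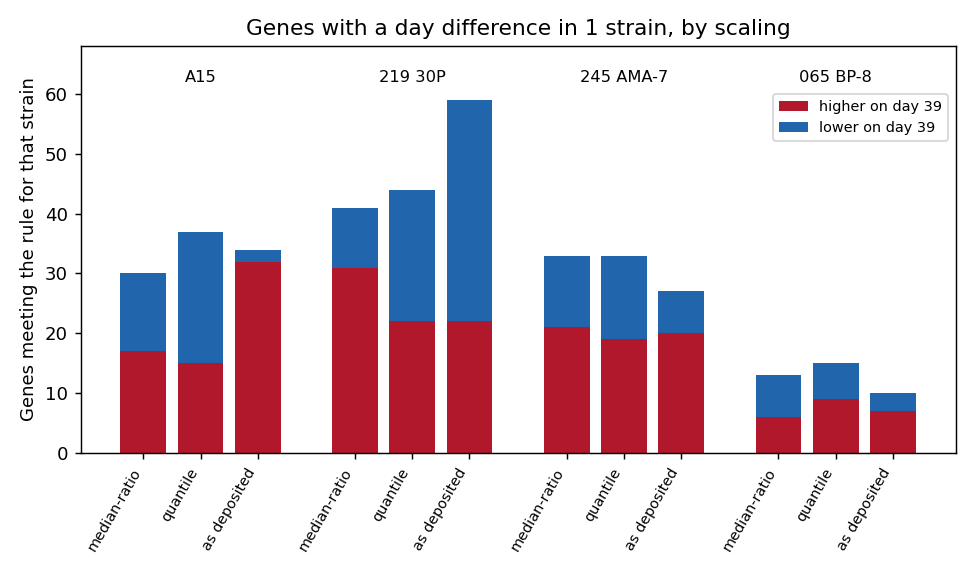
Number of genes meeting the rule (vertical axis) for each strain, with the libraries scaled in 3 ways. Red is higher and blue lower on day 39. For A15 the red part is 32 of 34 as deposited, 17 of 30 with median-ratio scaling and 15 of 37 with quantile normalization.

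None of the 34 genes carries a symbol in the RefSeq gene table of the reference strain H97, so they are given by locus tag and no role is assigned to them. All 34 identifiers matched that table. Of the 88 genes in all files that do have a symbol, 16 had d of 1 or more in size in A15 (7 higher, 9 lower), but each of these 16 also differed by 0.4 or more in another strain. Nearest to the rule was SKN7, a response regulator of histidine kinase signalling, with -1.45 in A15, -0.19 in 219 30P, -0.45 in 245 AMA-7 and -0.46 in 065 BP-8. NdufA1, a subunit of respiratory complex I, stood at 1.09 in A15 and at 0.42, 0.50 and 0.48 in 219 30P, 245 AMA-7 and 065 BP-8. Other genes with a symbol differed more in some other strain. Among them met2 of methionine synthesis had -1.20 in A15 and -3.27 in 245 AMA-7, and the lectin gene abl had 2.56 in A15 and 4.94 in 065 BP-8. By list, 5 of 47 genes of oxidative phosphorylation, 1 of 6 laccases, 2 of 5 heat shock genes and 3 of 6 genes of histidine kinase signalling reached 1 in A15, and none of the 3 genes of alternative respiration did. The lists were made from genes with a symbol, so none of the 34 could be in them. Whether any of the 34 genes belongs to these pathways is therefore not known.

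Within A15 the size of the difference was uneven. Of the 32 genes higher on day 39, 2 had d of 2 or more, 7 lay between 1.5 and 2, and 23 between 1 and 1.5. For all 34 genes the A15 libraries of the 2 days did not overlap, a description that the rule largely fixes and that holds for 79.4% of the 8818 genes averaging at least 1 FPKM. Day differences passed an adjusted p of 0.05 (limma, described with the level tests) for 62.3% of those genes in A15, 62.4% in 219 30P, 63.0% in 245 AMA-7 and 62.6% in 065 BP-8, and since the rule used these contrasts nothing is read from them for the 34 genes. Duplicates of the 34 genes lay apart by a median of 0.16 on the log2(FPKM + 1) scale in A15 on day 39 and 0.15 on day 27, and by a median of 0.28 in 065 BP-8 on day 27, the widest of the 8 groups. Since each sample is bulk compost, more mycelium of a given kind and more RNA per cell cannot be told apart.

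**Figure D2:**
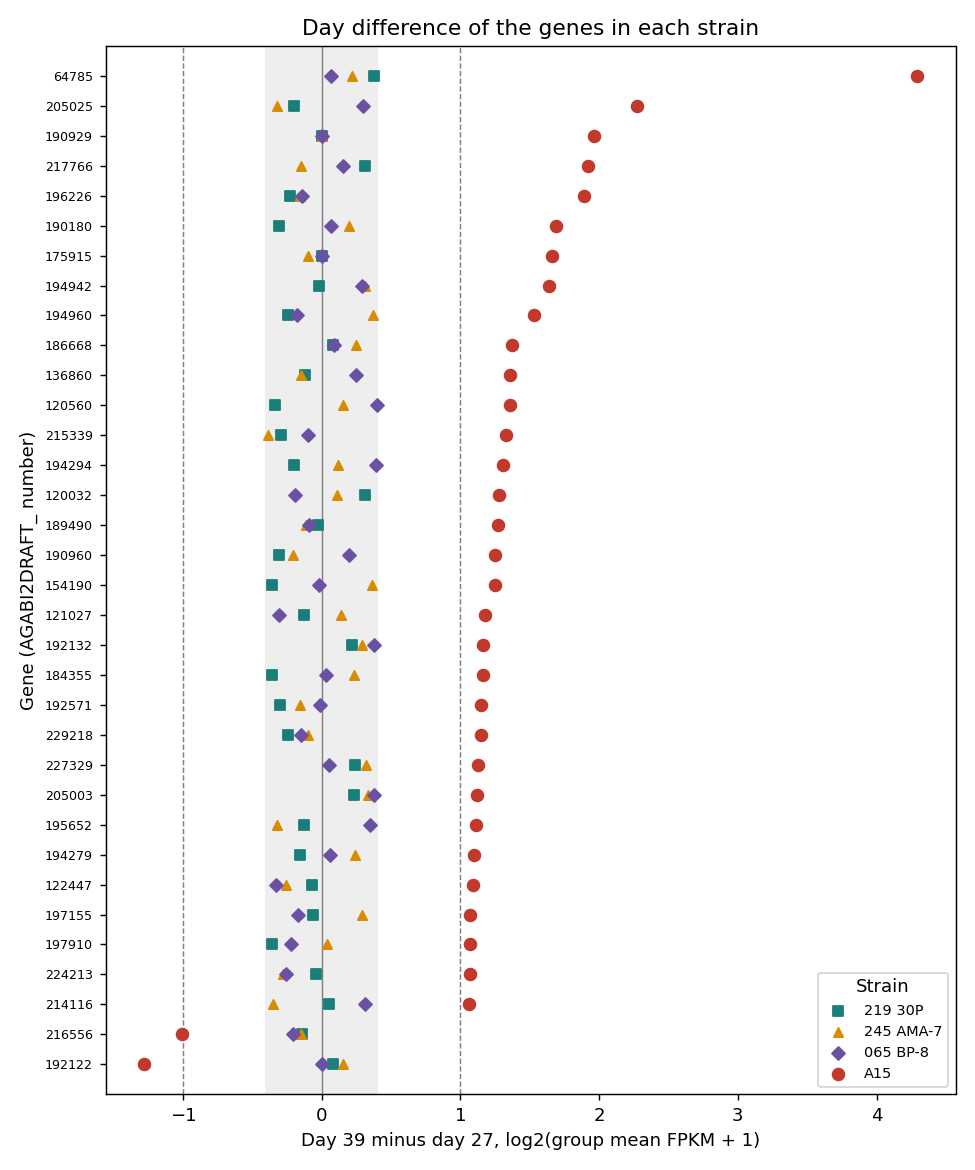
Day difference of each of the 34 genes (rows, by the number of the locus tag) in the 4 strains, as log2(group mean FPKM + 1) on day 39 minus day 27. The grey band marks the limit of 0.4 and the dashed lines mark 1, so the separation is set by the rule. AGABI2DRAFT_64785 stands apart at 4.29, and most A15 points lie between 1 and 1.5.

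AGABI2DRAFT_64785 had the widest difference. In A15 it reached 234.88 and 150.09 FPKM on day 39, against 8.93 and 8.81 FPKM on day 27, a 21.7-fold ratio of the means (d = 4.29). Its 12 libraries in the other strains ran from 15.2 to 34.96 FPKM with a median of 24.4 FPKM. Every one of them lay above both A15 libraries of day 27 and below both of day 39. In 219 30P its d was 0.38, close to the limit, and median-ratio scaling took it to 0.48. Under that scaling the gene missed the rule through 219 30P and not through A15 (4.05). With quantile normalization it missed the rule as well. With a single library left out it met the rule in 12 of 16 cases.

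AGABI2DRAFT_205025 came next, at a low level. It had 11.88 and 11.33 FPKM in A15 on day 39, against 1.74 and 1.49 FPKM on day 27 (d = 2.27, 7.19-fold). In 219 30P it had 0.83 and 0.82 FPKM on day 39 and 1.14 and 1.05 FPKM on day 27, and in 065 BP-8 1.55 and 1.4 FPKM on day 39 and 0.84 and 1.19 FPKM on day 27. So in both strains it was near the low A15 level on either day. In 245 AMA-7 it stood at 7.42 and 6.18 FPKM on day 39 and 8.68 and 8.84 FPKM on day 27, well above that level on both days. The gene met the rule under neither median-ratio scaling nor quantile normalization.

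AGABI2DRAFT_190929 was scarcely detected outside A15. It had 30.37 and 49.34 FPKM in A15 on day 39, against 9.18 and 9.77 FPKM on day 27 (d = 1.96, 4.21-fold). It was listed at 0 in all 4 libraries of 245 AMA-7, at 0.23 to 0.24 FPKM in those of 219 30P and at 0 to 0.24 FPKM in those of 065 BP-8. Its flat course in those strains is that of a gene near or at 0, and no fold is given against them.

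The next genes sat low in every library but those of A15 on day 39. AGABI2DRAFT_217766 had 57.79 and 49.89 FPKM in A15 on day 39, against 11.54 and 15.37 FPKM on day 27 (d = 1.92), and 6.36 to 22.88 FPKM in the other strains. AGABI2DRAFT_196226 had 23.05 and 19.47 FPKM in A15 on day 39, against 5.01 and 5.01 FPKM on day 27 (d = 1.89), and 2.79 to 5.11 FPKM elsewhere. AGABI2DRAFT_190180 had 23.93 and 19.24 FPKM in A15 on day 39, against 6.7 and 5.29 FPKM on day 27 (d = 1.69), and 4.71 to 13.79 FPKM elsewhere. In all 3 genes both A15 libraries of day 39 lay above each of the other 14. AGABI2DRAFT_190180 met the rule under both other scalings, AGABI2DRAFT_196226 with median-ratio scaling only and AGABI2DRAFT_217766 under neither. For AGABI2DRAFT_217766 the range in the other strains includes day 27 duplicates that lay far apart, with 12.74 and 6.36 FPKM in 245 AMA-7 and 12.25 and 22.88 FPKM in 065 BP-8.

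**Figure D3:**
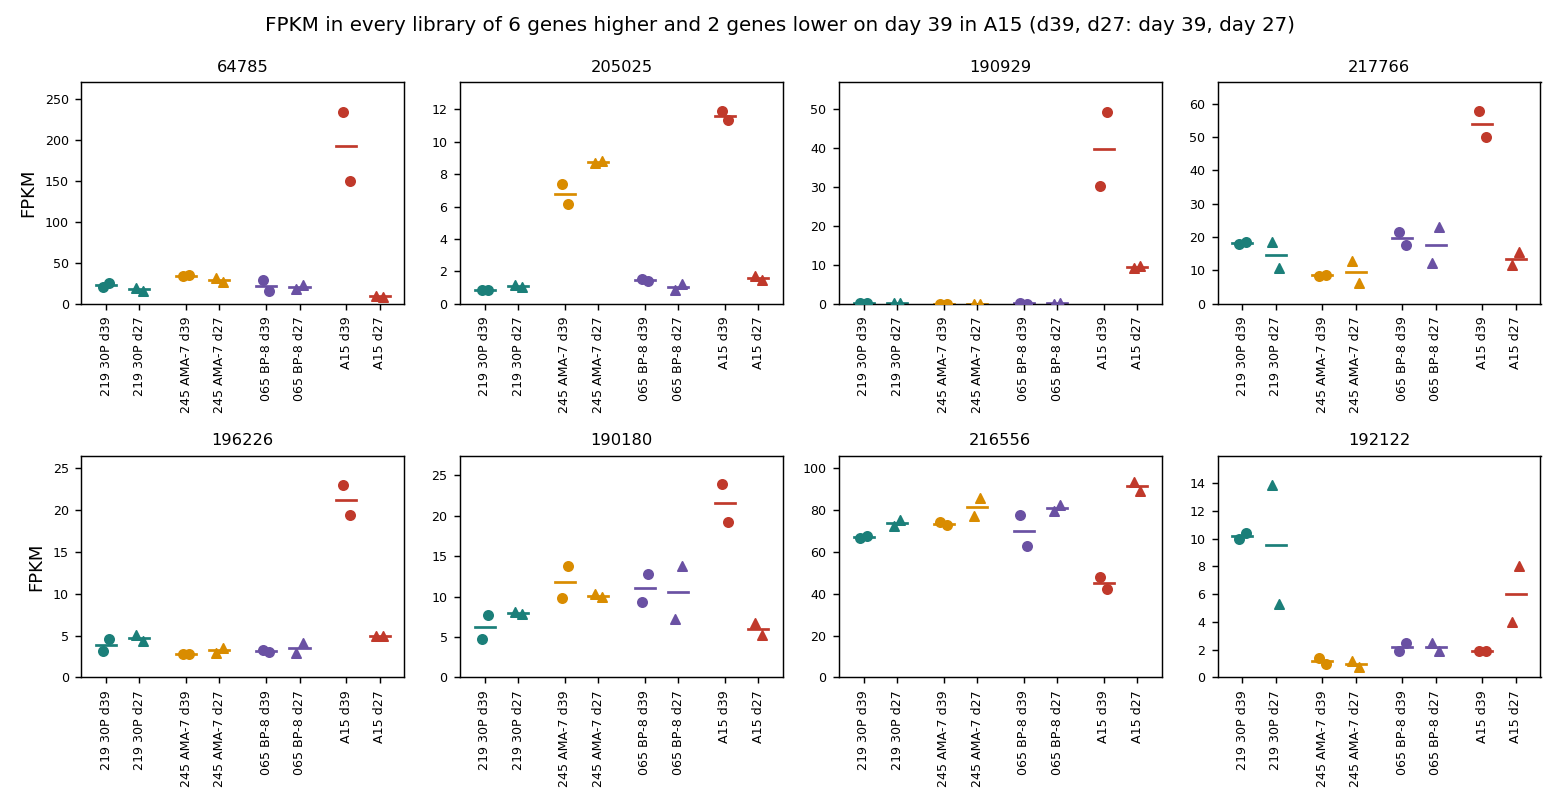
FPKM (vertical axis, starting at 0 and scaled per gene) in every library of the 6 genes with the largest d and of the 2 genes lower on day 39 in A15. Circles are day 39 and triangles day 27, each point is 1 library and each bar the mean of 2. AGABI2DRAFT_64785 reached 234.88 and 150.09 FPKM in A15 on day 39, and stayed between 8.81 and 34.96 FPKM in the other 14 libraries.

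AGABI2DRAFT_136860, AGABI2DRAFT_175915 and AGABI2DRAFT_189490 were also abundant, with smaller differences than AGABI2DRAFT_64785. AGABI2DRAFT_136860 had the highest level, at 276.42 and 264.52 FPKM in A15 on day 39, against 106.42 and 102.43 FPKM on day 27 (d = 1.36), with 75.59 to 130.64 FPKM in the other strains. AGABI2DRAFT_175915 had 157.88 and 123.85 FPKM in A15 on day 39, against 42.9 and 44.8 FPKM on day 27 (d = 1.66), with 30.1 to 95.67 FPKM elsewhere. AGABI2DRAFT_189490 had 112.89 and 99.41 FPKM in A15 on day 39, against 37.14 and 49.59 FPKM on day 27 (d = 1.27), with 50.51 to 86.32 FPKM elsewhere. For the last of these, every library of the other strains lay between those of the A15 days. AGABI2DRAFT_175915 and AGABI2DRAFT_189490 met the rule under both other scalings and whichever single library was left out, and AGABI2DRAFT_136860 under both scalings but not without replicate 2 of 065 BP-8 on day 27.

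Other genes of middling level had A15 duplicates close together. AGABI2DRAFT_154190 had 22.82 and 21.7 FPKM in A15 on day 39, against 8.7 and 8.85 FPKM on day 27 (d = 1.25), with 9.48 to 16.59 FPKM in the other strains. AGABI2DRAFT_229218 had 56.31 and 49.76 FPKM in A15 on day 39, against 23.39 and 23.16 FPKM on day 27 (d = 1.15), with 25.47 to 34.5 FPKM elsewhere. In both genes the other strains lay between the A15 days in every library, and for AGABI2DRAFT_229218 close above day 27. AGABI2DRAFT_194960 had 81.02 and 82.58 FPKM in A15 on day 39, against 29.84 and 25.38 FPKM on day 27 (d = 1.53), with 29.43 to 52.07 FPKM elsewhere. AGABI2DRAFT_184355 had 58.72 and 60.85 FPKM in A15 on day 39, against 27.56 and 24.95 FPKM on day 27 (d = 1.16), with 25.25 to 37.84 FPKM elsewhere. These 2 genes overlapped A15 on day 27 but not on day 39. AGABI2DRAFT_194960 met the rule under both other scalings, AGABI2DRAFT_154190 with median-ratio scaling only, and AGABI2DRAFT_229218 and AGABI2DRAFT_184355 under neither.

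For a few genes a strain already stood at the A15 day 39 level on both days. AGABI2DRAFT_186668 had 28.48 and 34.1 FPKM in A15 on day 39, against 12.04 and 10.98 FPKM on day 27 (d = 1.37). In 219 30P it had 31.57 and 28.45 FPKM on day 39 and 27.63 and 29.23 FPKM on day 27, while 245 AMA-7 and 065 BP-8 held 11.94 to 18.96 FPKM. AGABI2DRAFT_194294 had 19.52 and 11.68 FPKM in A15 on day 39, against 7.38 and 4.03 FPKM on day 27 (d = 1.31), and 14.86 to 16.85 FPKM in 245 AMA-7 on both days. Its day 39 duplicates in A15 were the farthest apart of the 34 genes, by 0.69 on the log2 scale.

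AGABI2DRAFT_216556 and AGABI2DRAFT_192122 were the pair lower on day 39. AGABI2DRAFT_216556 had 47.91 and 42.07 FPKM in A15 on day 39, against 93.53 and 89.14 FPKM on day 27 (d = -1.01), and 62.66 to 85.88 FPKM in the other strains. All 12 of those values lay between the A15 days. AGABI2DRAFT_192122 had 1.9 and 1.88 FPKM in A15 on day 39, against 4.01 and 8.03 FPKM on day 27 (d = -1.28). It passed the level of 10 FPKM only through 219 30P, which had 10 and 10.4 FPKM on day 39 and 13.84 and 5.31 FPKM on day 27. Its day 27 duplicates lay apart by 0.85 in A15 and 1.23 in 219 30P on the log2 scale, the widest gaps of any of the 34 genes in those groups.

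The limits of the rule passed close to single genes. Just inside the A15 limit was AGABI2DRAFT_214116 with 1.06 (AGABI2DRAFT_216556 had -1.01), and just outside were AGABI2DRAFT_217685 with -0.99 and AGABI2DRAFT_140419 with 0.99. Just inside the limit of 0.4 were AGABI2DRAFT_120560 and AGABI2DRAFT_194294, with 0.40 and 0.39 in 065 BP-8, and just outside were AGABI2DRAFT_182882, with 2.04 in A15 and 0.40 in 245 AMA-7, and AGABI2DRAFT_200700, with -1.55 in A15 and -0.41 in 245 AMA-7. For the level, AGABI2DRAFT_192122 (10.2 FPKM) and AGABI2DRAFT_205025 (11.6 FPKM) were the lowest inside, AGABI2DRAFT_186480 (9.95 FPKM) and AGABI2DRAFT_225970 (9.61 FPKM) the highest outside. Near 1 FPKM the added 1 compresses a ratio. In 6 of the 34 genes some other strain averaged under 2 FPKM over both days, and in 9 genes a plain ratio of FPKM passed the 1.32-fold that 0.4 stands for. AGABI2DRAFT_120560 was 1.61-fold higher on day 39 in 245 AMA-7, but at 0.35 and 0.36 FPKM against 0.14 and 0.3 FPKM on day 27.

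The average over both days of a strain is a separate quantity from its day difference, but the level of 10 FPKM in the rule does use it. Of the 34 genes, 19 reached 10 FPKM in all 4 strains, and 9 in a single strain. These 9 are AGABI2DRAFT_120032, AGABI2DRAFT_120560, AGABI2DRAFT_190929, AGABI2DRAFT_194942, AGABI2DRAFT_196226, AGABI2DRAFT_205025 and AGABI2DRAFT_214116, kept through A15 alone, AGABI2DRAFT_122447, kept through 065 BP-8, and AGABI2DRAFT_192122, kept through 219 30P. Their levels against the strain that kept them are described with no test, and the comparison with A15 rests on the 25 genes that reached 10 FPKM in A15 and in another strain, a split made after the values were seen. For a gene that is flat elsewhere the comparison asks whether the other strains stay above or below the midpoint between the 2 days of A15. On the log2(FPKM + 1) scale, limma was fitted to the 8818 genes over all 16 libraries. All 34 members pass that filter, since a group mean of 10 FPKM already gives 1.25 FPKM over 16 libraries. Benjamini-Hochberg (BH) adjustment ran over the 8818 genes, with calls made under 0.05. The labels do not say whether duplicates came from separate crates. The p-values set each difference against the spread between duplicates, which may be technical only. The A15 tables list 918 genes fewer than the others, and strain and table cannot be told apart in any comparison with A15.

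Averaged over both days, the 3 other strains were lower than A15 for 10 of these 25 genes and higher for 6. These are 40% and 24% of the 25, against 30.0% lower and 25.6% higher among the 6935 genes tested that met the same condition on level. The median difference was -0.09 for the 25 genes and -0.02 for the 6935. Without replicate 1 of A15 on day 27 the counts were 8 and 4. Over all 34 genes, 18 were lower and 6 higher (52.9% and 17.6%), against 28.6% and 26.7% of the 8818 genes (55.4% called in all), but 8 of the 18 are among the 9 genes kept through a single strain, and nothing is read from that excess.

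The 10 lower genes are all higher on day 39 in A15. Since the call is made against the midpoint of the A15 days, it implies that the average of the 3 other strains lay nearer to day 27. Single strains did not always follow that average. AGABI2DRAFT_195652 averaged 22.5 FPKM in 219 30P, against 23.25 and 20.2 FPKM in A15 on day 39 and 9.14 and 9.97 FPKM on day 27. With log2(FPKM + 1) averaged over libraries, the average of the other strains lay between the A15 days for 24 of the 32 genes higher on day 39. It lay below day 27 for 7 and above day 39 for 1. With median-ratio scaling it lay between for 20, below for 10 and above for 2, and with quantile normalization for 19, 10 and 3. These counts include the genes kept through A15 alone. As deposited, AGABI2DRAFT_136860, AGABI2DRAFT_190960 and AGABI2DRAFT_195652 counted as below day 27, but by mean FPKM the other strains lay above it. Their means were 105, 29.2 and 12.6 FPKM, against 104, 28.6 and 9.55 FPKM in A15 on day 27. In 6 genes higher on day 39, all 12 libraries of the other strains lay between the A15 days: AGABI2DRAFT_64785, AGABI2DRAFT_189490, AGABI2DRAFT_154190, AGABI2DRAFT_197910, AGABI2DRAFT_229218 and AGABI2DRAFT_121027. A wide difference in A15, which the rule demands, favours such a place. No share over all genes was taken for the 24 or the 6, so both counts are descriptions only.

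**Figure D4:**
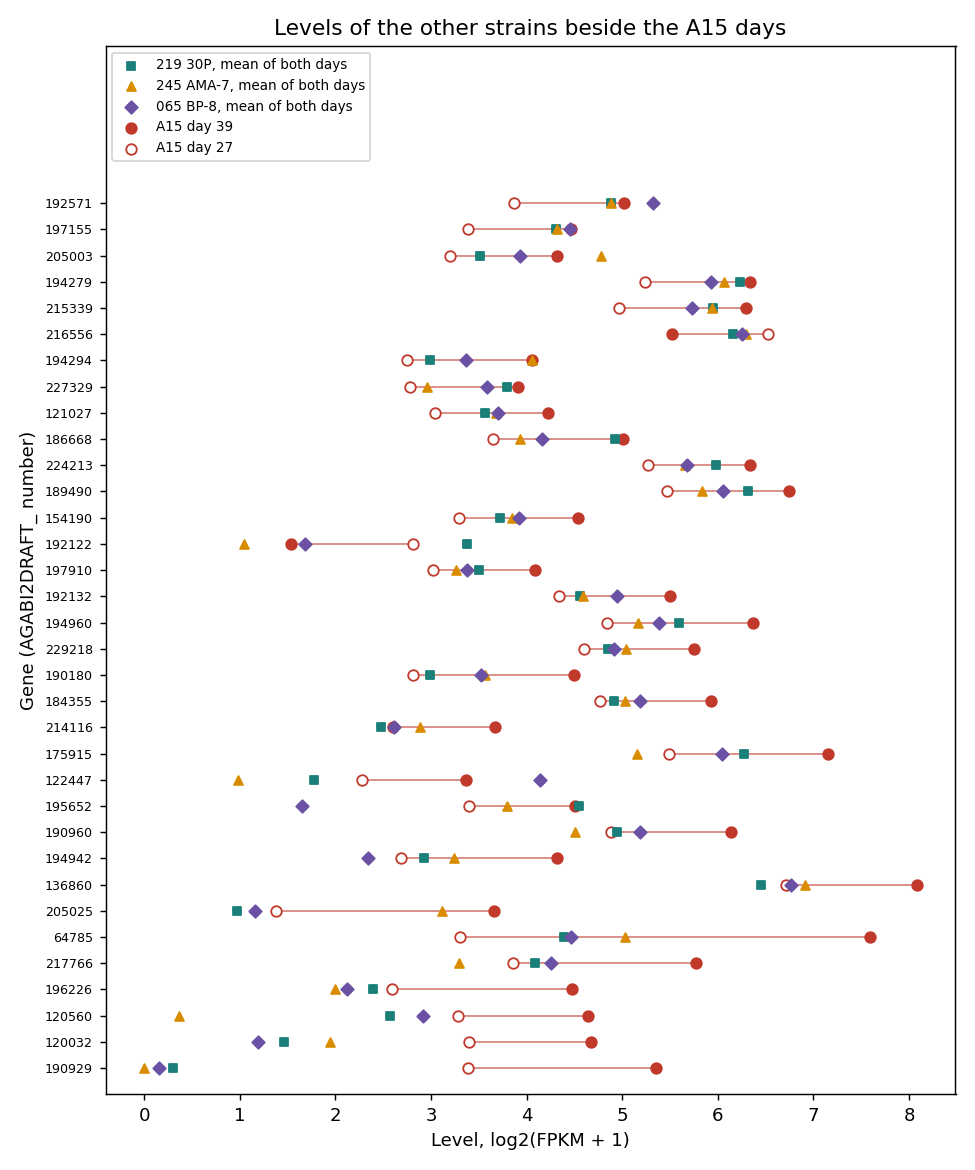
Level of each gene as log2(FPKM + 1), with the mean of both days for the 3 other strains (squares, triangles and diamonds) and the A15 day 39 and day 27 means (filled and open circles, joined by a line). Genes run from the highest to the lowest difference of the other strains from A15. For 24 of the 32 genes higher on day 39 in A15, the average of the other strains lies on the line, and 4 genes at the bottom, all kept through A15 alone, lie left of it in every other strain.

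In 4 genes kept through A15 alone, the other strains were lower by more than 2-fold. Since the rule kept them for their level in A15, this is a description, and the 7.81% of all genes called with a difference of that size in either direction is no measure for them. AGABI2DRAFT_190929 was near or at 0 in every other strain. AGABI2DRAFT_120032 averaged 1.76 FPKM in 219 30P, 2.83 in 245 AMA-7 and 1.3 in 065 BP-8, against 26.71 and 22.51 FPKM in A15 on day 39 and 9.57 and 9.54 FPKM on day 27. There was no overlap between the 12 libraries of the other strains and the 4 of A15. AGABI2DRAFT_120560 averaged 5.06 FPKM in 219 30P, 0.287 in 245 AMA-7 and 6.69 in 065 BP-8, against 22.89 and 24.86 FPKM in A15 on day 39 and 9.51 and 7.89 FPKM on day 27. AGABI2DRAFT_196226 is the last of the 4. By group means all 4 genes were lower in each other strain than in A15 on day 27.

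Among the 10 genes lower in the other strains, the calls of AGABI2DRAFT_192132 and AGABI2DRAFT_194960 rested on single A15 libraries. Their adjusted p (limma, BH) was 0.0125 and 0.0151, and 0.0741 and 0.0908 without replicate 1 of day 27, and AGABI2DRAFT_194960 had 0.0514 without replicate 2 of day 39. AGABI2DRAFT_136860 differed by -0.69 ± 0.09 (log2, SE; limma, BH-adjusted p = 4.98e-05), with averages of 86.7, 120.0 and 109.0 FPKM over both days in 219 30P, 245 AMA-7 and 065 BP-8, so the other strains kept about the level that A15 had on day 27. AGABI2DRAFT_190960 differed by -0.63 ± 0.07 (adjusted p = 7.63e-06), with 30.1, 21.8 and 35.6 FPKM in those strains, against 65.61 and 72.97 FPKM in A15 on day 39 and 27.31 and 29.99 FPKM on day 27. This gene met the rule under neither other scaling. AGABI2DRAFT_64785 differed by -0.81 ± 0.15 (adjusted p = 0.000781), but not detectably in 245 AMA-7 alone (-0.40 ± 0.19, adjusted p = 0.0855).

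Of the 6 genes with a higher level in the other strains, 5 are higher on day 39 in A15. In all 6 the average of the other strains lay nearer to the A15 day with the higher level, which the call itself implies. AGABI2DRAFT_192571 averaged 28.9, 28.6 and 39.3 FPKM in 219 30P, 245 AMA-7 and 065 BP-8, against 32.33 and 30.62 FPKM in A15 on day 39 and 15.29 and 11.96 FPKM on day 27. Its difference was 0.59 ± 0.11 (limma, BH-adjusted p = 0.000923). AGABI2DRAFT_197155 averaged 18.9, 19.1 and 21.1 FPKM in 219 30P, 245 AMA-7 and 065 BP-8, against 19.94 and 22.28 FPKM in A15 on day 39 and 10.56 and 8.45 FPKM on day 27 (0.44 ± 0.09, adjusted p = 0.00137). In both genes it was the day 27 libraries of A15 that stood below all others. AGABI2DRAFT_194279 (0.30 ± 0.09, adjusted p = 0.015) and AGABI2DRAFT_215339 (0.25 ± 0.08, adjusted p = 0.0259) had the same sign, but rested on single libraries. Without replicate 1 of A15 on day 27 their adjusted p (limma, BH) was 0.0964 and 0.109, without replicate 2 of A15 on day 39 AGABI2DRAFT_194279 had 0.0691, and without replicate 1 of that day AGABI2DRAFT_215339 had 0.19. For AGABI2DRAFT_205003 (0.31 ± 0.09, adjusted p = 0.00871) the excess was that of 245 AMA-7. The remaining gene, AGABI2DRAFT_216556, is lower on day 39 in A15 (0.21 ± 0.06, adjusted p = 0.0114; 0.16, adjusted p = 0.0701, without replicate 2 of A15 on day 39).

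Strain by strain against the same 4 A15 libraries, 15 of the 34 genes were lower and 7 higher in 219 30P, 15 lower and 8 higher in 245 AMA-7, and 13 lower and 4 higher in 065 BP-8. In all, 22, 23 and 17 genes were called, against 54.4%, 55.7% and 47.0% of all genes. By direction, over all genes the shares were 29.5% lower and 25.0% higher in 219 30P, 27.3% and 28.4% in 245 AMA-7, and 23.8% and 23.2% in 065 BP-8. These comparisons share their A15 libraries and include the 9 genes kept through a single strain, so they are given side by side as descriptions only.

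The 3 other strains often differed among themselves, in a test that uses the level of no A15 library. The F test passed for 23 of the 34 genes (67.6%), near the 69.8% of all genes, a count that includes the 2 genes kept through 1 of these strains alone. AGABI2DRAFT_195652 (adjusted p = 6.86e-09) had 1.46 to 2.57 FPKM in 065 BP-8, against 18.98 to 24.65 FPKM in 219 30P, and was lower there by 2.89 ± 0.12 (log2; limma, BH-adjusted p = 5.13e-09), with 11.09 to 17.06 FPKM in 245 AMA-7. AGABI2DRAFT_122447, described with no test, had the opposite order, with 13.61 to 21.03 FPKM in 065 BP-8, against 0.66 to 1.68 FPKM in 245 AMA-7 and 1.95 to 2.76 FPKM in 219 30P. It was kept through 065 BP-8 alone, and A15 had 8.83 and 9.73 FPKM on day 39, against 3.18 and 4.51 FPKM on day 27. In both genes the libraries of 065 BP-8 did not overlap those of 219 30P and 245 AMA-7.

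In 245 AMA-7 the level of AGABI2DRAFT_205025 was higher than in 219 30P by 2.16 ± 0.11 (limma, BH-adjusted p = 2.01e-08), and that of AGABI2DRAFT_205003 by 1.27 ± 0.11 (adjusted p = 1.44e-06), at 21.72 to 32.46 FPKM against 8.85 to 12.61 FPKM. These genes lie 8 places apart in the order of the reference table, the closest of any of the 34, a pair noticed after its values were seen. AGABI2DRAFT_120560 was lower in 245 AMA-7 than in 219 30P by 2.21 ± 0.15 on the log2 scale (adjusted p = 2.8e-07), at 0.14 to 0.36 FPKM against 4.0 to 7.3 FPKM.

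No member neighbours another in the order of the reference table. Of the 66 neighbouring genes with values, 57 reached 10 FPKM in some group, and 16 of these (28.1%) had d of 1 or more in size in A15, against 24.8% of all genes at that level. AGABI2DRAFT_190038, next to AGABI2DRAFT_215339, had 1.73 in A15 but -0.98 in 219 30P, -1.81 in 245 AMA-7 and -1.94 in 065 BP-8, and was singled out after its values were seen. In the reference table the 34 genes have a median length, introns included, of 1393.5 bases (418 to 5371), against 1600 bases for all matched genes tested.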

How the data were processed

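RNA-seq values were deposited for 16 libraries, 2 for each of 4 strains on day 39 and day 27; groups were taken from the sample titles. BWA, Bowtie and RSEM stand in the submitters' processing notes, without versions or roles. The genome build was not given in the sources used here. Neither the decimals nor the narrow range of the library sums tells FPKM from another unit scaled to transcript length and library size. FPKM is therefore an assumed unit for the deposited values. They hold no read counts, so depth is unknown and no counting interval is given. How reads were divided between similar genes is not known, and the level of a gene with a close copy is uncertain. Of the 9520 identifiers in all files 9457 matched the reference table (assembly Agabi_varbisH97_2), used for names and gene order only; 918 genes that the A15 tables do not list were not used.

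Levels were compared as log2(FPKM + 1) with limma 3.58.1 (limma-trend, R 4.3.3, 1 mean per group, 8 residual degrees of freedom), adjusted by Benjamini-Hochberg over 8818 genes; the code was tested on simulated data. Tables were made in Python 3.11.15 (numpy 2.4.6, pandas 2.3.3) and figures in matplotlib 3.10.9. Named genes were the 6 largest d upwards and all downwards in A15, the 5 highest levels, the 4 smallest adjusted p each way against A15 and 4 among the other strains, and those nearest the limits of the rule; genes outside this rule were chosen after their values were seen. The members and lists were chosen with earlier results of these data known. Alternatives were other scalings, pseudocounts and filters, a replicate block, other limits and leaving out each library.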

Additional observations from a re-analysis of the deposited data

Results flagged for a closer look

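In 2 of the 34 genes, an other strain lay above A15 and a different one below it in the mean of both days (limma, BH-adjusted p under 0.05 for each), and the strains differed by the F test among 219 30P, 245 AMA-7 and 065 BP-8. AGABI2DRAFT_195652 was higher than A15 in 219 30P (0.59 ± 0.12, log2, SE) and lower in 065 BP-8 (-2.30 ± 0.12), with adjusted p = 6.86e-09 among the strains. AGABI2DRAFT_186668 was higher in 219 30P (0.59 ± 0.09) and lower in 245 AMA-7 (-0.40 ± 0.09), with 4.29e-06. In AGABI2DRAFT_122447, AGABI2DRAFT_192122 and AGABI2DRAFT_205025 the strains also lay on both sides of A15. Each of these genes reached 10 FPKM in a single strain, so no test against A15 is given for them. Over all genes, 54.4% were called against A15 in 219 30P, 55.7% in 245 AMA-7 and 47.0% in 065 BP-8, and 69.8% by the F test. The share of all genes with strains on both sides of A15 was not counted, so the pattern is not shown to be unusual.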

How the results depend on the processing

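The number of genes meeting the rule depended on its limits: 12 with a limit of 0.3 in the other strains (10 higher on day 39 in A15), 66 with 0.5 (56 higher), and 9 with a difference of 1.5 in A15 (9 higher). Median-ratio scaling gave 17 higher genes, quantile normalization 15. With a pseudocount of 5 the rule found 40 genes, 20 of them among the 34. Without a single library the count ran from 26 (without replicate 2 of 065 BP-8 on day 27) to 44 (without replicate 1 of A15 on either day) and the higher genes from 23 to 41; 8 of the 34 met the rule whichever library was left out, 4 of these under both scalings too. The count of higher genes and the place of the other strains were added as alternatives after seeing the data.

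Of the 25 genes at 10 FPKM in A15 and another strain, a selection added after seeing the data, 16 were called against A15 under both scalings, both pseudocounts, both filters and the replicate block (6 higher, 10 lower), and 12 to 17 without a library. The counts over all 34 genes, here and below, and the results for single genes that follow include the 9 genes kept through a single strain. The rule used the level of those 9, so nothing is read from how steady these counts are. Over all 34 genes the number was 24 under both scalings, both pseudocounts, no filter and the replicate block, each time 6 higher and 18 lower. They were 23 with a mean of at least 5 FPKM, and 19 to 25 without a library. By strain, leaving out a library gave 19 to 24 in 219 30P, 20 to 23 in 245 AMA-7 and 14 to 17 in 065 BP-8, and 20 to 23 for the F test. A group left with 1 library was assumed to vary like the others. Over all genes, day calls without a library were 4780 to 5689 in A15, 4720 to 5719 in 219 30P, 4601 to 5775 in 245 AMA-7 and 4772 to 5532 in 065 BP-8. Of 3120 results for single genes under an alternative, 3008 kept their side of the threshold, 70 no longer passed and 42 newly passed. None passed in the opposite direction, but differences that did not pass could change sign. For AGABI2DRAFT_121027 the 3 other strains differed from A15 by 0.03, and by -0.12 without replicate 2 of A15 on day 27.

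Equal replicate numbers are not said to mark a shared crate or day, and deviations of equal numbers correlated at -0.27 to 0.17 over 28 group pairs. With the replicate block 22 of the 34 genes passed the F test among the other strains. Calls against A15 then numbered 23 in 219 30P, 22 in 245 AMA-7 and 16 in 065 BP-8.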
